A study of Mus musculus with 14 samples.

Results

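The genes described are 10 that build and lengthen centrioles: Plk4, Stil, Sass6, Cep152, Cep63, Cep192, Cenpj, Cep135, Spice1 and Ccp110. They were taken by symbol from a gene table of 55487 genes, all 10 were found, and all 10 were among the 16876 genes that passed the low-count filter. The RNA came from mouse kidneys at E13.5, from cells of the ureteric bud sorted by GFP; the ureteric bud is the epithelial branch that becomes the collecting ducts. The series asks which pathways are disturbed in the bud when centrosomes are lost. There were 5 Cep120 KO libraries (numbered 2, 4, 5, 6 and 7), titled homozygous for Cep120 with Hoxb7-Cre, and 3 Cep120 controls, titled heterozygous and given the genotype WT. There were also 3 Pkd1 KO libraries, titled homozygous for Pkd1 with Hoxb7-Cre, and 3 Pkd1 controls, titled heterozygous and given the genotype WT. All groups therefore carry the Hoxb7-Cre transgene by their titles, which acts in the ureteric bud lineage and also makes the GFP that was sorted on. Cells outside that lineage keep their alleles. No label says if each library was a separate embryo, litter or pool, so the p-values reflect only how much these libraries vary, and that variation may be technical.

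A centriole is a barrel of microtubules that organises the centrosome and forms the base of the cilium, and a new one is built beside each old one once per cell cycle. Cep192 and Cep152, with Cep63, hold the kinase Plk4 at the wall of the parent centriole; Plk4 then acts on Stil, which brings in Sass6, the protein of the cartwheel that seeds the new barrel. Cenpj (also called CPAP) adds tubulin and lengthens the barrel, Cep135 ties the cartwheel to the microtubules, Spice1 works with Cenpj and Cep120 in elongation, and Ccp110 (CP110) caps the far end and limits its length. Most of these roles were worked out in human cells. Cep120 is needed for elongation, and Pkd1 encodes polycystin-1, which is mutated in most dominant polycystic kidney disease.

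Promoter sequences are shown for Cep63, Cenpj, Spice1 and Ccp110, the members whose levels followed each other most closely over the libraries, and for Cep152, whose level followed another pattern. Each runs from 250 bases before to 50 after the start in RefSeq, build GRCm38.p6, on the strand of the gene. The Cep63 window lies at chr9:102626075-102626374 on the minus strand. The Cenpj window lies at chr14:56571797-56572096 on the minus strand. The Spice1 window lies at chr16:44347151-44347450 on the plus strand. The Ccp110 window lies at chr7:118712293-118712592 on the plus strand. The Cep152 window lies at chr2:125625064-125625363 on the minus strand. Capitals mark matches, on either strand, to any of the 6 motifs described next.
Cep63: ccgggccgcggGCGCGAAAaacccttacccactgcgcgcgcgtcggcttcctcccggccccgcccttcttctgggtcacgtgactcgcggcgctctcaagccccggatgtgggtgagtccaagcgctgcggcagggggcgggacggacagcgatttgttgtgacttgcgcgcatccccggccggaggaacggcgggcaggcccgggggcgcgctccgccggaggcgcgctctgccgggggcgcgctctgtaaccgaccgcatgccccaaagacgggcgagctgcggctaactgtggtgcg
Cenpj: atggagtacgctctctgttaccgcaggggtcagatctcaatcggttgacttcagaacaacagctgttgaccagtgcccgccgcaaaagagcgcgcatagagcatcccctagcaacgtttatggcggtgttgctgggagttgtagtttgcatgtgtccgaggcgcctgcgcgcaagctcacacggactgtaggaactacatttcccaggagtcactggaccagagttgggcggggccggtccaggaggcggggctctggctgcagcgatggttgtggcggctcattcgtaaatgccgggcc
Spice1: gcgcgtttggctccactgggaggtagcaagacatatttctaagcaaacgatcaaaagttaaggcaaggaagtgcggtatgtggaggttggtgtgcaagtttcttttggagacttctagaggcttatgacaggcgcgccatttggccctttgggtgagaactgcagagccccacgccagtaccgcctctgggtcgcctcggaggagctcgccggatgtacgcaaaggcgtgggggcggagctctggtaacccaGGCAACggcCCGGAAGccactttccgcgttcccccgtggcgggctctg
Ccp110: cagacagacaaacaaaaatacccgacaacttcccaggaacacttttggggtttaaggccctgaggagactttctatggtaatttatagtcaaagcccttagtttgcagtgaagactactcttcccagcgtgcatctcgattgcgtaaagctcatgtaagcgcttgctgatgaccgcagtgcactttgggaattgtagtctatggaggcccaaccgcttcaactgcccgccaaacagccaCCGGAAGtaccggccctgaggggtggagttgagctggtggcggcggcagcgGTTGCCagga
Cep152: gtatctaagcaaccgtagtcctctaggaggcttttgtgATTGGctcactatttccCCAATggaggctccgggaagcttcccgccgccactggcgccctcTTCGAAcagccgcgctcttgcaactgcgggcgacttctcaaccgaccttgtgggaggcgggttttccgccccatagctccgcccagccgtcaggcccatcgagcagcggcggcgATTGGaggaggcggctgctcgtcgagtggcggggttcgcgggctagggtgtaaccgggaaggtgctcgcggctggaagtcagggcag

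The motifs were searched on both strands, and no matches overlapped in these genes. A match is a description of letters, not of a bound site. An E2F motif (TTTCCCGC, TTTCGCGC, TTTGCCGC or TTTGGCGC) was in 2.27% of all 32851 promoters, and among the 9 members in the promoter table in Cep63. The cell cycle homology region (CHR; TTTGAA or TTCGAA) was in 19.2% of promoters and in Cep152 and Sass6. A CCAAT box (CCAAT) was in 37.4% of promoters, and in Cep152, Stil and Cep135. An ETS motif (CCGGAAG) was in 8.86% of promoters, and in Plk4, Ccp110 and Spice1. An NRF1 motif (GCGCATGC) was in 2.71% of promoters, and in Plk4. An RFX half-site (GTTGCC), the core letters of the factors that act on many cilium genes, was in 12.5% of promoters, and in Ccp110 and Spice1. Of the 4 genes that moved together, Cenpj held none of these motifs, and no motif was in all 4. The Cep63, Cenpj and Spice1 windows lie inside the genes as annotated in GENCODE M21, so motifs at those outer starts were not searched. The Cenpj window lies furthest in, as that gene starts at chr14:56575425 on the minus strand. The members' promoters were 50% (Plk4) to 73.0% (Cep63) G and C, against a median of 52.7% over all promoters.

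Libraries differed in ways that touch every result for Cep120 KO. Total counts were 16293837 to 23761736 in Cep120 KO, 18200490 to 27475901 in Cep120 controls, 11347657 to 27967596 in the Pkd1 KO group and 22061677 to 23181220 in the Pkd1 control group. Cep120 KO libraries 4 to 7 stood apart. Differences were taken from the mean of all Cep120 and Pkd1 controls together. The median of the longest 10% of genes less that of the shortest 10% was 1.00 to 1.35 (log2) in these 4 libraries, and -0.27 to 0.41 in the other 10. Cep120 KO libraries 6 and 7 held nephron progenitor RNA: 8 markers summed to 862 and 660 CPM (reads scaled to library size by TMM), against 26.4 to 63.6 CPM in all others. In the same libraries 6 and 7, the 12 ureteric bud markers summed to 1318 and 1910 CPM, against 3361 to 3889 CPM elsewhere, and 8 stromal markers to 138 and 146 CPM, against 1.73 to 65.9 CPM elsewhere. Some markers did not follow their sums. In libraries 6 and 7, the bud markers Hoxb7 and Lhx1 lay within the range of the other libraries. So did the stromal markers Pdgfra, Pdgfrb and Dcn, and the progenitor marker Cited1. Six2, which defines nephron progenitors, was at 127 and 86.1 CPM there and at 0 to 1.53 CPM in the other 12 libraries. Squared differences between Cep120 KO libraries 4 and 5 were 3.31 times those of sampling noise (median over genes). Every other pair within a group had at least 7.24 times, and libraries 6 and 7 had 17.1 times. In such bulk samples fewer cells of a type and less RNA per cell cannot be told apart.

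The targeted genes did not both follow their labels. Cep120 had 7.87, 19.5, 21.2, 13.1 and 16.5 CPM in Cep120 KO libraries 2, 4, 5, 6 and 7, against 10.6, 6.41 and 9.45 CPM in Cep120 controls (log2 fold change 0.83, SE 0.31, edgeR adjusted p = 0.0832). The libraries labelled Cep120 KO were thus not lower in Cep120 RNA, and library 2 alone lay within the control range. Pkd1 had 2.68, 2.39 and 2.42 CPM in Pkd1 KO, against 4.60, 3.34 and 3.84 CPM in Pkd1 controls (log2 fold change -0.65, SE 0.43, edgeR adjusted p = 1.0). Every Pkd1 KO library was below every Pkd1 control, without passing the test. The sources do not give the deleted exons, so a gene total may count reads from outside the deletion.

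In the ureteric bud libraries of the Cep120 line, 5 of the 10 centriole genes were higher in Cep120 KO than in Cep120 controls and none was lower. Cep135, Cenpj, Cep152, Ccp110 and Cep63 passed the test (log2 fold changes 3.15, 2.41, 2.22, 1.71 and 1.12), while Plk4, Stil, Sass6, Cep192 and Spice1 did not. The calls therefore fell on 0 of the 3 initiation genes, 2 of the 3 genes of the recruitment platform and 3 of the 4 genes of the barrel and its cap. This split depended on the libraries: without library 2, Sass6 and Spice1 were called too. Over all genes, 14.7% were called in this comparison, 8.40% as higher and 6.26% as lower. The median log2 fold change was 1.04 over the 10 centriole genes and 0.12 over all genes. In the GENCODE M21 annotation (GRCm38), the called genes lie at chr5:76588698-76646466 (Cep135), chr14:56526761-56575425 (Cenpj), chr2:125563088-125625113 (Cep152), chr7:118712552-118737024 (Ccp110) and chr9:102584588-102626534 (Cep63). All 5 are protein-coding. The calls used edgeR's quasi-likelihood test at a Benjamini-Hochberg adjusted p under 0.05. They rested on Cep120 KO libraries 4 to 7. The members' median log2 difference from the Cep120 control mean was -0.40 in library 2, with 2 of 10 above it, and 1.37, 1.36, 1.16 and 1.34 in libraries 4, 5, 6 and 7, with 8, 8, 10 and 10 above it. In the other 9 libraries that median was 0.02 to 0.38. Calls over all genes moved with those of the members when libraries were left out, from 2475 of 16876 with all libraries. Without libraries 6 and 7, 0 members and 1028 of 16028 genes were called; without library 2, 7 members and 5719 of 16825 genes were. Without library 4, 3 members and 1557 genes were called, and without library 5, 2 members and 1296 genes. Without library 6 or library 7, 0 members were called, with 314 and 8 genes. Without Cep120 control 1, 2 or 3, 0 members were called, with 2, 6 and 3 genes. When any single library of the Pkd1 line was left out, 3 members were called, with 1303 to 1441 genes. The fold changes moved less: leaving out any single library, log2 values were 2.75 to 3.66 for Cep135, 2.24 to 2.77 for Cenpj, 1.88 to 2.48 for Cep152, 1.50 to 1.96 for Ccp110 and 1.00 to 1.34 for Cep63.

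**Figure D1:**
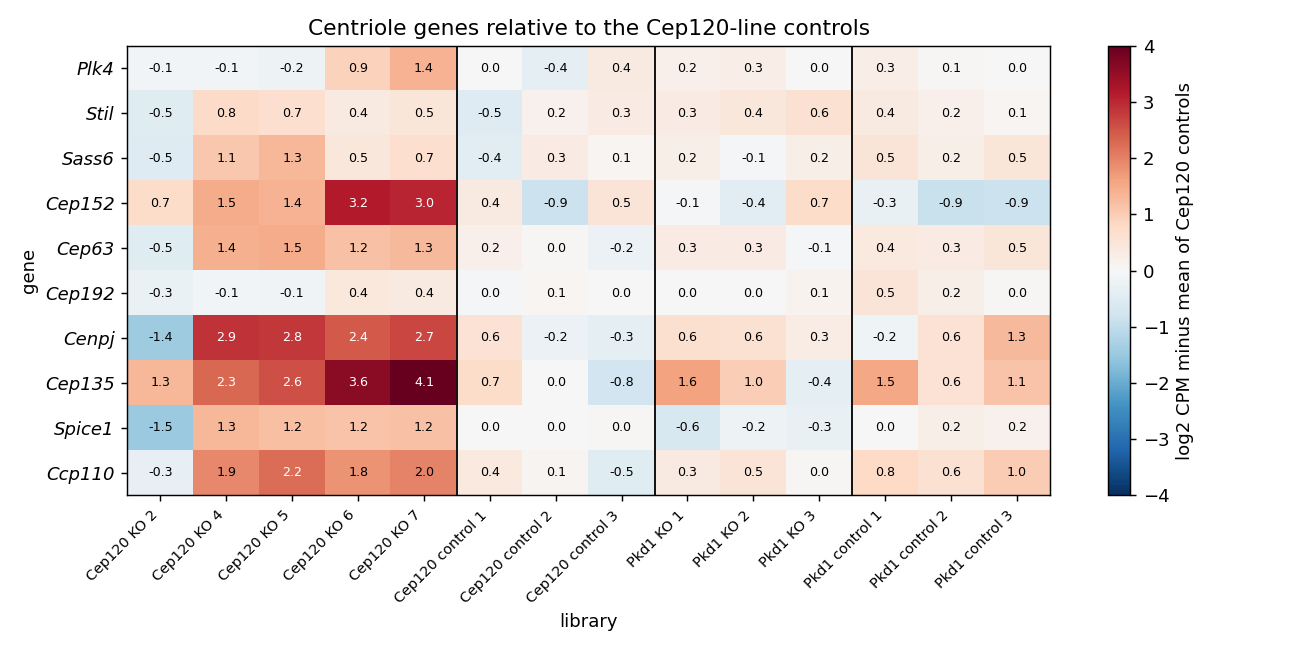
Log2 CPM of each centriole gene (rows) in each of the 14 libraries (columns) less the mean of the 3 Cep120 controls; red is higher and blue lower. Cep120 KO libraries 4 to 7 are red in most rows, while Cep120 KO library 2 is above the control mean only for Cep152 and Cep135.

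**Figure D2:**
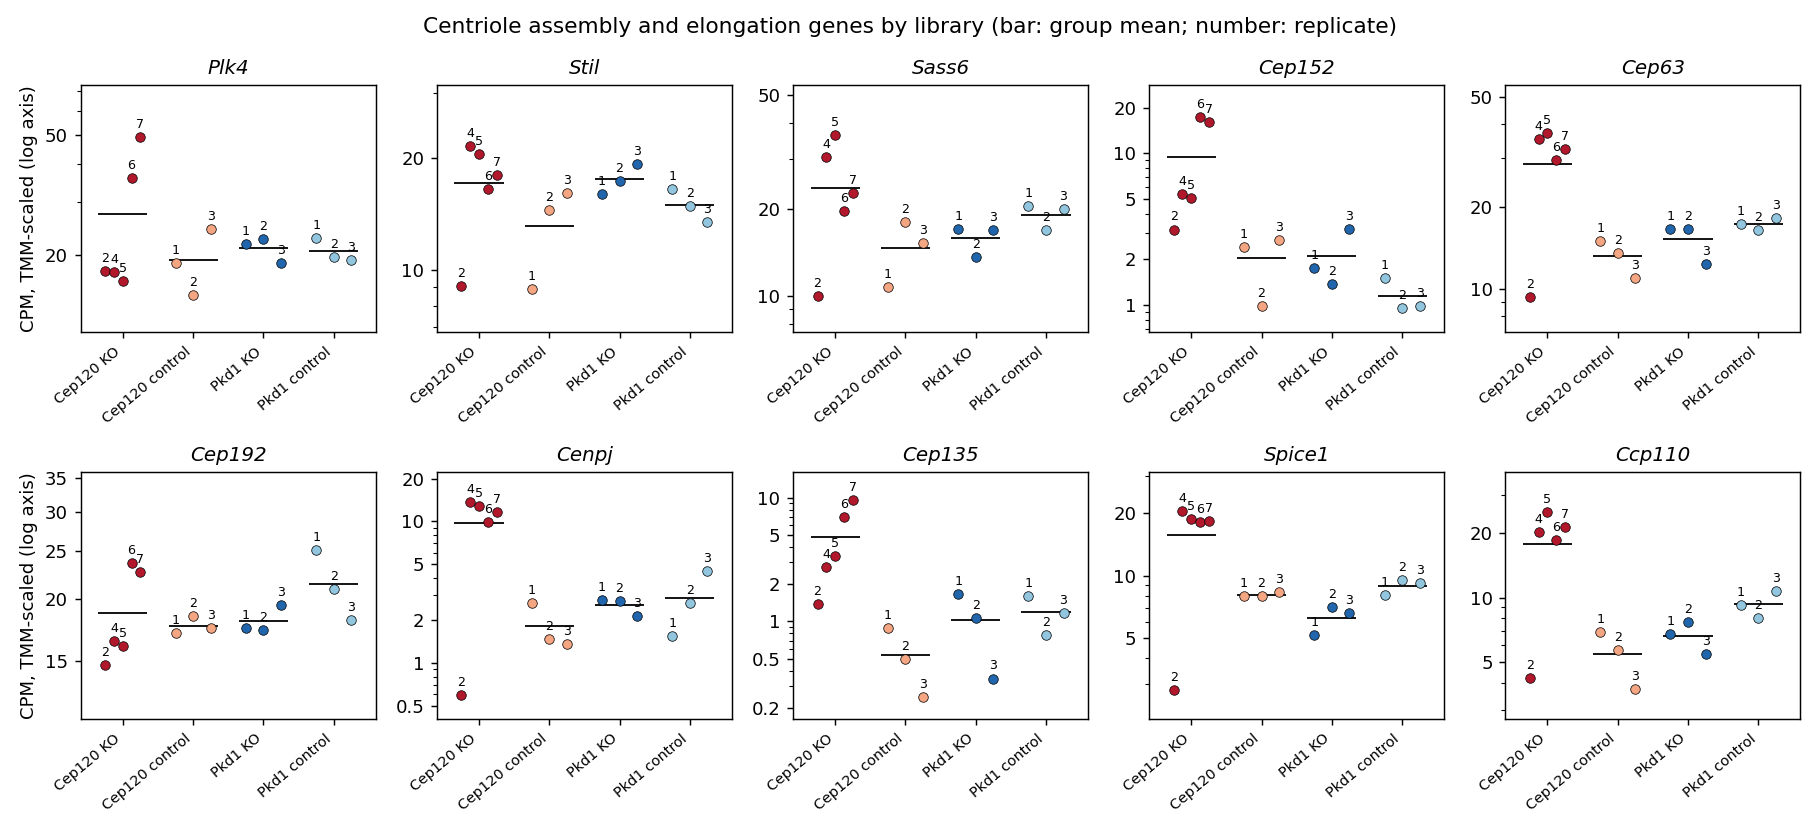
CPM, scaled by TMM, on log axes that differ between panels, for each gene by group; points are libraries with their replicate number and bars are group means. Of the 10 genes, Cep152 and Cep135 have every Cep120 KO library above every Cep120 control.

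The initiation genes varied without a call. Plk4, the kinase that starts duplication, had 17.7, 17.6, 16.5, 36.2 and 49.4 CPM in Cep120 KO libraries 2, 4, 5, 6 and 7, against 18.8, 14.8 and 24.5 CPM in Cep120 controls. Libraries 6 and 7 alone were above the control range, so the groups overlapped (log2 fold change 0.51, SE 0.34, edgeR adjusted p = 0.318). Those are the 2 libraries with nephron progenitor RNA, and without them the Plk4 log2 fold change was -0.16. The part of that RNA in the Plk4 values was not tested. Stil, the Plk4 substrate, had 9.05, 21.5, 20.6, 16.5 and 18.1 CPM in Cep120 KO, against 8.87, 14.5 and 16.1 CPM in Cep120 controls. Library 2 was close to the lowest control and libraries 4 to 7 were above the highest (log2 fold change 0.38, SE 0.27, edgeR adjusted p = 0.339). Sass6, the cartwheel protein, had 9.97, 30.3, 36.3, 19.7 and 22.7 CPM in Cep120 KO, against 10.7, 18 and 15.3 CPM in Cep120 controls. Its library 2 was below every control and its libraries 4 and 5 were the highest of all 14 (log2 fold change 0.70, SE 0.33, edgeR adjusted p = 0.152). Without library 2, Sass6 was called (edgeR adjusted p = 0.0118).

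Among the genes that place Plk4 on the parent centriole, Cep152 and Cep63 were higher in Cep120 KO and Cep192 was not called. Cep152, the main Plk4 anchor together with Cep192, had 3.15, 5.39, 5.05, 17.4 and 16.1 CPM in Cep120 KO, against 2.41, 0.986 and 2.70 CPM in Cep120 controls. Every KO library was above every control, and libraries 6 and 7 were well above libraries 4 and 5 (log2 fold change 2.22, SE 0.61, edgeR adjusted p = 0.0331). Without libraries 6 and 7 the Cep152 log2 fold change was 1.17 and the call was lost. Cep63, the partner of Cep152, had 9.38, 35.2, 36.9, 29.5 and 32.3 CPM in Cep120 KO, against 15.0, 13.6 and 11 CPM in Cep120 controls. Library 2 was below every control and the other 4 were each above every control (log2 fold change 1.12, SE 0.34, edgeR adjusted p = 0.0438). Cep63 differed little between libraries 4 and 5 and libraries 6 and 7, and its log2 fold change without libraries 6 and 7 was 1.04, again without a call. Cep192, the scaffold that also recruits pericentriolar material, had 14.8, 16.5, 16.1, 23.7 and 22.7 CPM in Cep120 KO, against 17.1, 18.5 and 17.5 CPM in Cep120 controls. Its libraries 2, 4 and 5 were below every control and its libraries 6 and 7 above (log2 fold change 0.08, SE 0.20, edgeR adjusted p = 0.798).

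Of the elongation and capping genes, Cenpj, Cep135 and Ccp110 were higher in Cep120 KO. Cenpj, which lengthens the barrel, had 0.59, 13.6, 12.8, 9.89 and 11.6 CPM in Cep120 KO, against 2.64, 1.48 and 1.35 CPM in Cep120 controls. Library 2, with 9 reads, was the lowest of all 14, and the other 4 were above all controls (log2 fold change 2.41, SE 0.71, edgeR adjusted p = 0.0397). Cep135, the cartwheel-to-wall linker, had 1.38, 2.77, 3.41, 6.95 and 9.65 CPM in Cep120 KO, against 0.881, 0.493 and 0.246 CPM in Cep120 controls. Every KO library was above every Cep120 control, but those controls held only 15, 12 and 4 reads (log2 fold change 3.15, SE 0.73, edgeR adjusted p = 0.0291). The Pkd1 controls had 1.60, 0.778 and 1.17 CPM of Cep135, so that Cep120 KO library 2 lay within their range. Ccp110, the cap, had 4.20, 20.2, 25.1, 18.5 and 21.2 CPM in Cep120 KO, against 6.93, 5.67 and 3.74 CPM in Cep120 controls. Library 2 fell within the control range and the other 4 were well above it (log2 fold change 1.71, SE 0.44, edgeR adjusted p = 0.0313). Spice1, the elongation partner of Cep120, had 2.82, 20.5, 18.8, 18.1 and 18.4 CPM in Cep120 KO, against 7.93, 7.97 and 8.35 CPM in Cep120 controls. Libraries 4 to 7 were close together above the controls, but library 2 was the lowest of all 14 (log2 fold change 0.96, SE 0.44, edgeR adjusted p = 0.142). Without library 2, Spice1 was called with a log2 fold change of 1.23.

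Groups that did not overlap were few: 2 of the 10 genes, Cep152 and Cep135, had every Cep120 KO library above every Cep120 control, and 6.41% of all genes did. Library 2 taken alone against the 3 controls gave log2 fold changes of 1.36 for Cep135 and 0.66 for Cep152, and negative ones for the other 8, from -0.11 for Plk4 to -1.59 for Cenpj. These are values of 1 library, which has no replicate check. The calls changed with the libraries and with the correction used. With an offset for gene length and GC content, 0 members and 150 of all 16876 genes were called. The fold changes of the 5 genes under it were 2.86 for Cep135, 2.21 for Cenpj, 1.74 for Cep152, 1.35 for Ccp110 and 0.92 for Cep63 (log2). A fit of the Cep120 line alone called 0 members and 0 of all 15972 genes (4081 had an unadjusted p under 0.05).

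**Figure D3:**
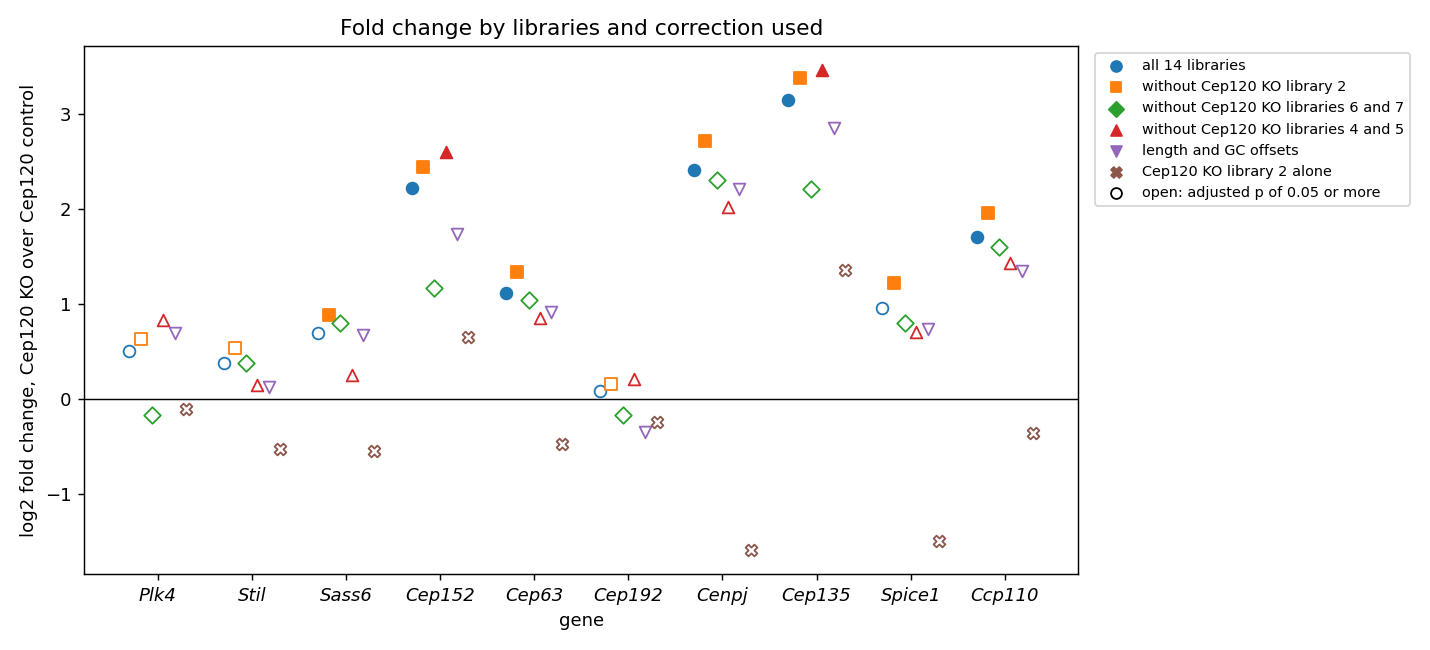
Log2 fold change of each centriole gene, Cep120 KO over Cep120 control, with all 14 libraries, without library 2, without libraries 6 and 7, without libraries 4 and 5, with length and GC offsets, and with library 2 as the only KO library; filled symbols passed an adjusted p of 0.05. For library 2 alone, the spread is that of the other groups. Library 2 alone gives negative values for 8 of the 10 genes, and removing it adds Sass6 and Spice1 to the genes called.

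Long genes were higher in Cep120 KO as a class, and the members are long by their longest annotated transcript. Tested genes were divided into 10 length classes of equal size by that transcript, and the offsets used the same lengths. The longest transcript need not be the main form. For Cep63 it is Cep63-207, a retained-intron form of 5861 bases, while the main form, Cep63-211, has 1791 bases. The longest forms of Cep135 and Stil are annotated as retained intron and nonsense-mediated decay. Plk4 was in class 6, Sass6, Cenpj and Spice1 in class 8, Stil, Cep152, Cep63 and Cep135 in class 9, and Cep192 and Ccp110 in class 10, the longest. The median log2 fold change was 0.15, 0.31, 0.44 and 0.70 over all genes of classes 6, 8, 9 and 10, and the share called higher was 6.94, 12.8, 16.1 and 23.7%. Stil, at 0.38, and Cep192, at 0.08, were below the medians of their classes, and the other 8 members were above theirs. The part of length in the members' values was not tested beyond the offset fit.

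No member was called between Pkd1 KO and Pkd1 controls. The test called 0 of all 16876 genes there (0.0%; 259 had an unadjusted p under 0.05), DESeq2 called 3 and limma-voom 1, and of the 10 members none had an unadjusted p under 0.05. The members' median log2 fold change was -0.20, and 3 of 10 were positive. Spice1, with 5.18, 7.03 and 6.57 CPM in Pkd1 KO, against 8.03, 9.56 and 9.21 CPM in Pkd1 controls, did not overlap between the groups (log2 fold change -0.51, SE 0.48, edgeR adjusted p = 1.0). Ccp110, with 6.75, 7.67 and 5.46 CPM in Pkd1 KO, against 9.20, 8.05 and 10.7 CPM in Pkd1 controls, did not overlap either (log2 fold change -0.49, SE 0.46, edgeR adjusted p = 1.0). Every Pkd1 KO library was below every control for 6.19% of all genes. The largest change was that of Cep152, with 1.76, 1.37 and 3.18 CPM in Pkd1 KO, against 1.50, 0.961 and 0.993 CPM in Pkd1 controls, where the groups overlapped (log2 fold change 0.86, SE 0.65, edgeR adjusted p = 1.0).

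**Figure D4:**
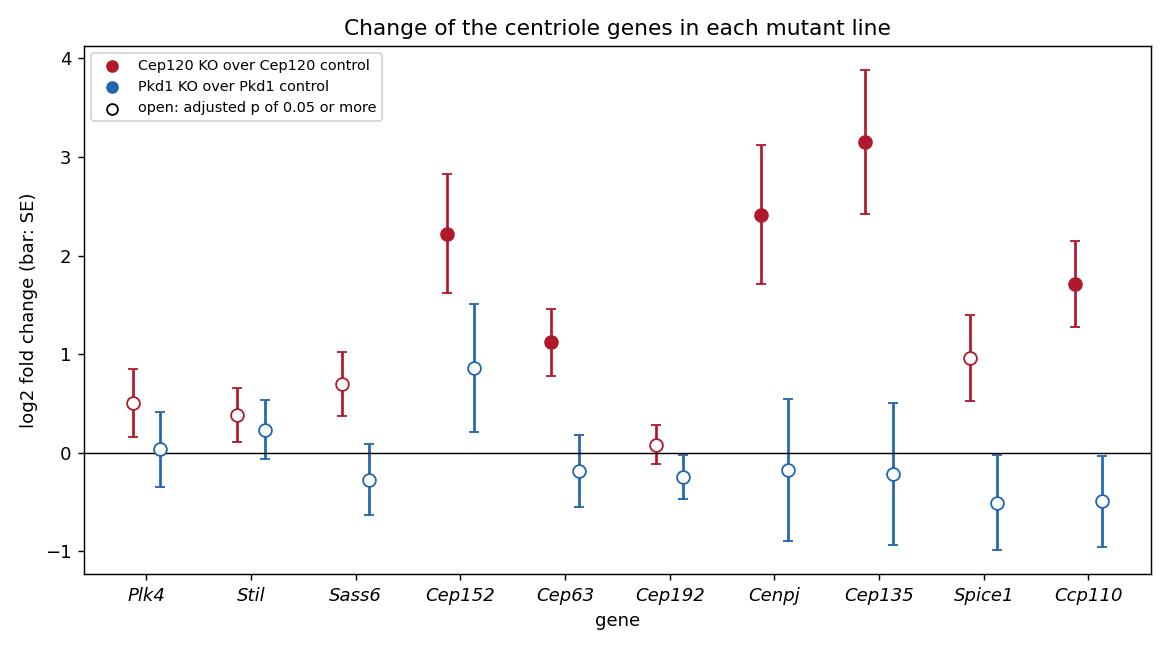
Log2 fold change with its SE for each centriole gene in Cep120 KO over Cep120 control (red) and in Pkd1 KO over Pkd1 control (blue); filled points passed an adjusted p of 0.05. The 5 filled points are Cep152, Cep63, Cenpj, Cep135 and Ccp110, all in the Cep120 line.

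Whether the Cep120 and Pkd1 effects differ depended on the libraries and the tool. With all 14 libraries, the edgeR test of the difference called 0 of 10 members and 0 of all genes (0.0%; 3436 had an unadjusted p under 0.05). The Cep120 effect less the Pkd1 effect was 3.37 for Cep135 (SE 1.00) and 2.20 for Ccp110 (SE 0.63) on the log2 scale, each with an edgeR adjusted p of 0.176, the smallest among the members. In DESeq2 these 2 genes were called, with 715 of the 13267 genes given an adjusted p. Limma-voom called 6 members and 4383 genes. Without Cep120 KO library 2, edgeR called 6 members and 3140 of 16825 genes; the 6 were Sass6, Cep63, Cenpj, Cep135, Spice1 and Ccp110. Between the control groups, Cep120 controls against Pkd1 controls, 0 members were called, as were 0.124% of all genes. The members' median log2 fold change was -0.33. Cep63 and Ccp110 were lower in every Cep120 control than in every Pkd1 control, as were 9.99% of all genes.

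The order of levels was compared per length, in the authors' deposited TPM, which corrects for transcript length. In Cep120 KO, Cep63 was first at 31.3 ± 14.7 TPM and Cep135 last at 1.36 ± 1.09 TPM (SD, n = 5), and every gene overlapped the next in the order. In Cep120 controls, Cep192 (9.31 ± 0.46 TPM), Cep63 (8.61 ± 0.71 TPM) and Plk4 (8.08 ± 2.03 TPM) led and overlapped each other (SD, n = 3). Sass6, Spice1 and Stil followed at 5.51, 4.24 and 2.61 TPM, each overlapping the next, and Ccp110 stood apart at 1.02 TPM. Cenpj and Cep152 overlapped at 0.417 and 0.291 TPM, and Cep135 was last at 0.0817 TPM. The last 4 genes in the controls were thus Ccp110, Cenpj, Cep152 and Cep135, which were 4 of the 5 genes called as higher in Cep120 KO. The last 4 were the same genes in Pkd1 KO and in Pkd1 controls.

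Over the 14 libraries, 4 members followed each other closely. Cep63, Ccp110 and Cenpj correlated at a Pearson r of 0.94 to 0.98 in log2 CPM, and Spice1 with each of them at 0.87 to 0.91. The median r of all 45 pairs was 0.60, with a lowest value of 0.07 for Plk4 and Sass6. Over the 10 libraries other than Cep120 KO 4 to 7, the median was 0.25, and within the group of 4 it was 0.93 for Cep63 and Ccp110, 0.83 for Cep63 and Cenpj, 0.74 for Cenpj and Ccp110, and 0.50 to 0.65 for Spice1 with the others. The closeness of the 4 was thus lower without those libraries. These correlations are descriptions: the libraries share group, depth and the length trend. The 5 protein-coding genes most like the mean of the members, of 13726 compared over 14 libraries, were Ubtf (r = 0.982), Adgrl1 (0.979), R3hdm2 (0.974), Hgs (0.972) and Gpatch4 (0.970), and 481 genes had an r over 0.9.

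The deposited transcript table gave no call for a member. Of 35 member transcripts tested in Cep120 KO against Cep120 controls, 0 were called, as was 1 of all 34209 (0.00292%); 10 had an unadjusted p under 0.05 and 30 had positive fold changes. Ccp110 is shown because its main transcripts changed places between libraries. Ccp110-203, the longest form at 6948 bases, held 54.0 and 70.1% of the Ccp110 reads in Cep120 KO libraries 4 and 5, 15.2 and 20.9% in libraries 6 and 7, and 0 in library 2, against 3.50, 9.31 and 6.92% in Cep120 controls. Ccp110-202, of 5073 bases, held most of the reads in every library other than Cep120 KO 4 and 5. The main form of Cep63, Cep63-211, held 53.7 to 74.7% of its reads in all 14 libraries. For Cep135 the estimates put all reads on a single form in 9 libraries, and not always the same form, at 4 to 34 reads a library. Splits between overlapping transcripts are estimates, and the listed transcripts of Plk4, Stil and Sass6 held only part of the gene's reads, 0.782 to 67.5% by gene and library.

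**Figure D5:**
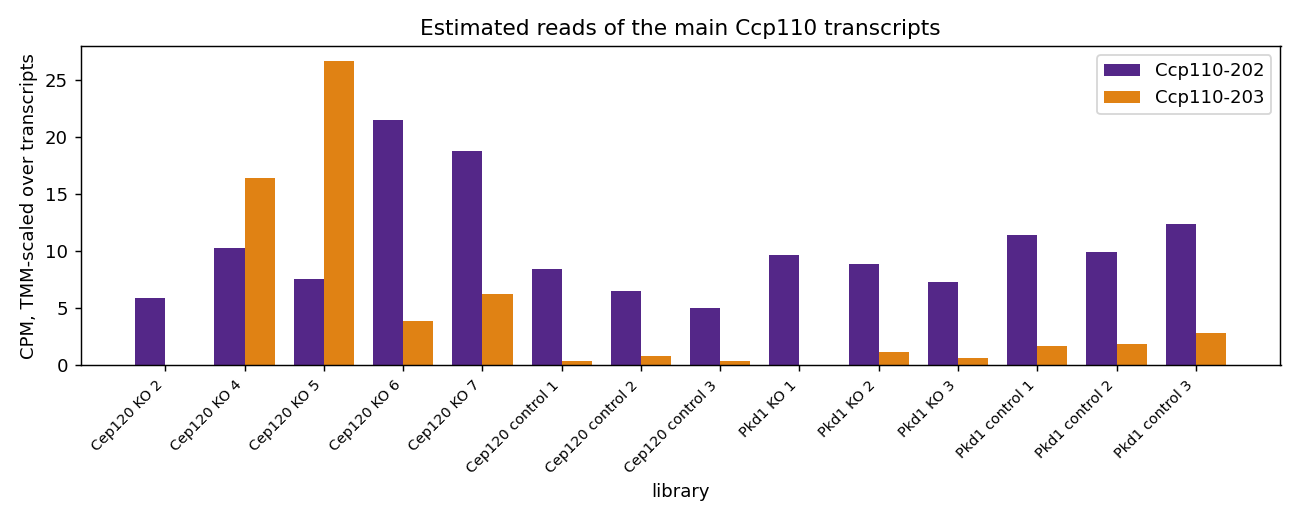
Estimated reads of transcripts Ccp110-202 (purple) and Ccp110-203 (orange), in CPM scaled by TMM over transcripts, in each of the 14 libraries. Ccp110-203 is the higher of the pair in Cep120 KO libraries 4 and 5, at 16.5 and 26.7 CPM.

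Of 21 other centriole proteins, 1 was called higher in Cep120 KO and 2 lower, close to the 14.7% of all genes called, with a median log2 fold change of 0.38. Cep97, the partner of Ccp110 in the cap, rose (0.57, SE 0.17, edgeR adjusted p = 0.0414). It had 14.9, 19.7, 16.7, 16.5 and 18.9 CPM in Cep120 KO, against 12.2, 10.5 and 12.3 CPM in Cep120 controls; Pkd1 KO and Pkd1 controls had 16.5 to 21.6 CPM. Cetn2 (-0.89, SE 0.27, edgeR adjusted p = 0.0447) and Cetn3 (-0.80, SE 0.22, edgeR adjusted p = 0.0354), small calcium-binding proteins of the barrel, fell. Cetn3 had 274, 154, 151, 136 and 127 CPM in Cep120 KO, against 319, 284 and 276 CPM in Cep120 controls, and its fold change was 0.01 (log2) with the length and GC offsets. With the same offsets that of Cep97 was 0.20 (adjusted p = 0.436 in edgeR) and that of Cetn2 was -0.22 (adjusted p = 0.365 in edgeR). Without Cep120 KO libraries 6 and 7, 0 of the 21 were called, with 1028 of all 16028 genes called.

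Of 18 regulators of duplication, 3 were called higher in Cep120 KO and 0 lower, where 14.7% of all genes were called and 8.40% as higher, with a median log2 fold change of 0.18. Plk2, a kinase related to Plk4, rose (2.60, SE 0.33, edgeR adjusted p = 0.0118). It had 40.1, 83.5, 80.3, 91.0 and 88.6 CPM in Cep120 KO, against 10.6 to 13.8 CPM in Cep120 controls. Here library 2 moved with the other 4, all 5 KO libraries were above all controls, and Plk2 was still called without libraries 6 and 7 and with the length and GC offsets. Without Cep120 control 1 or 3, where 2 and 3 of all genes were called, the Plk2 log2 fold change was 2.48 (adjusted p = 0.114) and 2.65 (adjusted p = 0.0662). Neurl4, which restrains Ccp110 in human cells, rose (1.23, SE 0.37, edgeR adjusted p = 0.0415), as did Fzr1, an activator of the anaphase-promoting complex (0.99, SE 0.31, edgeR adjusted p = 0.0490). Neither was called with the offsets or without libraries 6 and 7.

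Cell cycle genes are given because centriole genes are made with the cycle. None of 12 G1/S genes was called in Cep120 KO (median 0.02); the smallest p was that of the replication licensing factor Cdt1 (log2 fold change 1.19, SE 0.39, edgeR adjusted p = 0.0548). Of 12 G2/M genes, 5 were called higher and 0 lower (8.40% of all genes were called higher), with a median of 0.08. Mki67, a proliferation marker, had 4.26, 73.5, 70.9, 116 and 103 CPM in Cep120 KO, against 8.11, 10.1 and 3.93 CPM in Cep120 controls (log2 fold change 3.31, SE 0.73, edgeR adjusted p = 0.0290). Like Cenpj and Spice1, Mki67 was high in libraries 4 to 7 and not in library 2. Cenpe, a mitotic motor (3.01, SE 0.69, edgeR adjusted p = 0.0290), and Top2a, a topoisomerase (0.98, SE 0.24, edgeR adjusted p = 0.0305), also rose. With the length and GC offsets, 0 of the 12 G2/M genes and 150 of all 16876 genes were called. The log2 fold changes under the offsets were 2.62 for Mki67, 2.61 for Cenpe and 0.80 for Top2a. Without Cep120 KO libraries 6 and 7, 3 of the 12 were called higher, with 1028 of 16028 genes called. Summed over the 12 G2/M genes, levels were 1420 to 1458 CPM in Cep120 KO, against 1322 to 1467 CPM in Cep120 controls. Of 6 genes of deuterosomes, the structures that make many centrioles in multiciliated cells, 3 were tested and 0 called. Deup1 was at 0 to 0.701 CPM in Cep120 KO, against 0 in all 3 Cep120 controls (edgeR adjusted p = 0.0742). It was at 0.235, 0.549 and 0 CPM in Pkd1 controls and at 0 to 0.0691 CPM in Pkd1 KO.

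Markers of other cells were counted in the same comparison, where 8.40% of all genes were called higher and 6.26% lower. Of 12 ureteric bud markers 0 were called (median 0.03; Calb1, a calcium-binding protein, -0.84, SE 0.33, edgeR adjusted p = 0.0943). Of 8 nephron progenitor markers, Six2 alone was called higher (5.98, SE 1.82, edgeR adjusted p = 0.0437). The median of the 8 was 5.41, and without libraries 6 and 7 it was -0.81 over the 7 tested. Of 8 leukocyte markers, Fcer1g (-2.47, SE 0.53, edgeR adjusted p = 0.0290) and Tyrobp (-2.74, SE 0.74, edgeR adjusted p = 0.0329) were called lower. The list summed to 3.80 to 17.2 CPM in Cep120 KO, against 29.7 to 36.6 CPM in Cep120 controls. It summed to 9.47 to 13.6 CPM in Pkd1 KO and 4.45 to 17.9 CPM in Pkd1 controls, so the Cep120 controls were the group that stood apart. Of 8 stromal markers (smallest p Foxd1, adjusted p = 0.223 in edgeR), 8 endothelial markers (Flt1, adjusted p = 0.241) and 7 erythroid markers tested, 0 were called. Endothelial markers summed to 0.459 to 58.5 CPM in Cep120 KO, against 4.87 to 22.5 CPM in Cep120 controls. Erythroid markers summed to 3.54 to 686 CPM in Cep120 KO, against 271 to 3028 CPM in Cep120 controls. The part of these cells in the members' values was not tested, apart from the fits without libraries 6 and 7.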

How the data were processed

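Per the labels' protocols, GFP-sorted cells of dissociated kidneys gave complementary DNA through a SMARTer Ultra Low RNA kit, which does not mark strand, so reads of antisense neighbours cannot be told apart. The authors deposited estimated counts per gene and per transcript, not normalized, and TPM per gene, scaled to the same total in every library. The submitters' processing notes name DRAGEN and mm9, with no role; of the aligner and annotation, details are not given in the sources used. Of 55774 lines, 287 repeated a gene and were dropped. Lengths came from GENCODE M21 (GRCm38), matched for 55141 genes, and promoters from RefSeq.

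Counts were rounded. Genes passing filterByExpr at a minimum count of 10 were scaled by TMM, and all 14 libraries entered a quasi-likelihood fit with 4 group means (R 4.3.3, edgeR 4.0.16). Calls needed an adjusted p under 0.05 (Benjamini-Hochberg) over all genes tested. Log2 CPM used a prior count of 2. The script was tested on simulated data. The alternatives were RLE scaling, no filter, DESeq2 1.42.0, limma 3.58.1 with voom, limma-trend on log2(TPM + 1) at a mean TPM of at least 1, a separate fit, offsets for length and GC, pooled controls and libraries left out. Counts carry no molecular identifiers, so duplicates cannot be removed.

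The members and gene lists were chosen with earlier results of these data known. Named genes are the members, the targeted genes, up to 3 called genes with the smallest adjusted p in each list (or, with no call, the gene of smallest p), and the 5 genes most like the members. The named gene of the erythroid list is not reported here.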

Additional observations from a re-analysis of the deposited data

Results flagged for a closer look

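In the Cep120 KO group of 5 libraries, library 2 was far below the rest for several genes, by the gap to its nearest neighbour as a share of the whole range (Dixon's criterion, critical value 0.71). Cep63 was at 9.38 CPM there, and the next library at 29.5 CPM. Cenpj was at 0.59 CPM there, and the next at 9.89 CPM. Spice1 was at 2.82 CPM there, and the next at 18.1 CPM. Pkd1, not a member, was at 3.61 CPM there, and the next at 12.4 CPM. Of 12 genes examined (the 10 members, Cep120 and Pkd1), these 4 stood out, and chance alone flags about 1 in 20 groups; the genes are correlated, so the 4 are not independent. Library 2 was also the Cep120 KO library whose trend with gene length was like that of the controls.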

How the results depend on the processing

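For Cep120 KO against Cep120 controls, 5 members and 2475 of 16876 genes were called. Members called, with genes called in brackets, were 8 with voom (6665) and 0 in a separate fit of that line (0). They were 0 with length and GC offsets (150) and 0 without Cep120 KO libraries 6 and 7 (1028). They were 2 without libraries 4 and 5 (2065), and 3 with libraries 4 and 5 summed (1400). Leaving out a single library gave 0 to 7 members, with calls over all genes falling or rising with them (2 to 5719). RLE (2460), no filter (2235 of 31237), DESeq2 (4199) and pooled controls (3711) each gave 5. TPM gave 6 of the 9 it tested (4840 of 12964), where the median of all genes was 0.54. Chosen after seeing the data, offsets without libraries 6 and 7 gave 0 (134), and offsets without library 2 gave 7 (4171).

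For the difference between effects, 0 members became 2 with DESeq2 and 6 with voom, 0 to 6 leaving out a library (6 without Cep120 KO 2), and 6 with offsets without library 2 (1598 genes). Member transcripts called were 6 with voom, and 0 to 5 leaving out a library (5 without Cep120 KO 2). Calls over all transcripts in these settings are not reported here. Calls over all genes were 6665 with voom and 5719 without Cep120 KO 2. The median level in Cep120 controls was 3.42 TPM, and 1.97 as CPM per kilobase, another scale. The median correlation of 0.60 was 0.25 without Cep120 KO 4 to 7. Library 2 as the only KO library has no replicate, so its spread is assumed to be that of the other groups; its log2 values were -0.48 for Cep63, -1.59 for Cenpj, -0.36 for Ccp110 and -0.78 for Mki67. Cetn3 turned to 0.0127 with offsets and 0.0308 with offsets without library 2. The cause was not tested.

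With a replicate block in the Pkd1 line, 0 members were called and 0 genes, against 3 genes in the same fit without it. Deviations from the group means in libraries of the same number correlated at -0.045, -0.029 and -0.124. These values gave no sign that the numbers pair the libraries, but they cannot exclude a shared litter. No paired analysis was possible in the Cep120 line because its groups share only number 2. Depth limits Cep135 most, at 4 to 15 reads in Cep120 controls.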
